A study of Mus musculus with 6 samples.

Results

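The mitochondrial ribosomal protein genes are the nuclear genes for the protein subunits of the mitoribosome. Here they are the genes whose symbols begin with Mrpl or Mrps and a digit, with names carrying -ps (pseudogenes) left out. The rule found 78 of the 24537 genes in the files: 51 for the large subunit, 26 for the small subunit, and Mrps36. Mrps36 carries the name, but its product is now known as a subunit of the 2-oxoglutarate dehydrogenase complex. No measured value was used to choose them. Of the 77 subunit genes, 46 code for homologues of bacterial ribosomal proteins and 31 for proteins specific to mitochondria; the assignment follows human and pig mitoribosome structures.

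The mitoribosome is made of RNAs transcribed from mitochondrial DNA and of proteins that are transcribed in the nucleus, made in the cytosol and imported. It translates the few messages of the mitochondrial genome, all of which code for membrane subunits of the respiratory chain and of ATP synthase. In brain, that chain supplies most of the ATP for ion pumping and synaptic transmission.

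RNA from the cerebellum of male mice aged 6 weeks postnatal was sequenced. There were 3 Reln heterozygous libraries, described in the series' design as heterozygous null for reelin and labelled as strain Orl/BalbC, and 3 wild-type libraries, labelled as strain C57BL/6. Reln codes for reelin, a secreted protein that guides the positions of neurons. Genotype and labelled strain therefore cannot be told apart in any difference below. Nothing in the labels ties each library to an animal of its own, so p-values concern these libraries and not animals. In bulk tissue, fewer cells of a type and less RNA per cell cannot be told apart.

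Depths estimated from the steps between low values were about 25100000, 27000000 and 22900000 reads in heterozygous libraries and 28300000, 26800000 and 28500000 reads in wild-type libraries. Reln had 0.531, 0.509 and 0.580 FPKM in heterozygous libraries, against 0.834, 0.771 and 0.940 FPKM in wild-type libraries. FPKM, the deposited unit, is reads scaled to the length of the gene and to the size of the library. The groups did not overlap, and the ratio was 0.636 (two-sided exact permutation test, p = 0.1, the smallest that 3 against 3 libraries can give). The granule cell markers, the main marker list of cerebellum, summed to 569 to 602 FPKM in heterozygous and 531 to 612 FPKM in wild-type libraries. The choroid plexus markers, which mark a tissue next to the cerebellum, varied most, with 3.73 to 164 FPKM in heterozygous and 0.835 to 288 FPKM in wild-type libraries; Ttr, the leading one, had 3.15, 156 and 6.43 FPKM in heterozygous and 273, 0.566 and 150 FPKM in wild-type libraries. The summed markers overlapped between the groups for all 10 cell type lists examined, and their part in the results was not tested.

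All 78 genes were above 0 in every library. Their mean over the 6 libraries ran from 0.0709 FPKM for Mrps28 to 20.5 FPKM for Mrpl34, with a median of 2.87 FPKM, and 9 genes reached 10 FPKM while 25 stayed under 2 FPKM. The highest were Mrpl34, Mrpl43, Mrpl51, Mrpl53, Mrps26 and Mrpl41. Mrpl34, a small large-subunit protein with a bacterial homologue, had 21.1, 20.6 and 21.9 FPKM in heterozygous libraries, against 24.0, 16.8 and 18.6 FPKM in wild-type libraries. Mrpl43, specific to mitochondria, had 23.6, 22.3 and 19.0 FPKM in heterozygous libraries, against 20.9, 16.6 and 18.8 FPKM in wild-type libraries. The groups overlapped for both, and the means of these neighbours in the order, 20.5 and 20.2 FPKM, differed by less than the spread between libraries.

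This order of levels follows gene length. The labels give exons as the length in FPKM, but the values fit the whole gene, introns included. In 2705 genes with a single annotated transcript and long introns, 87% of the low values were whole numbers of reads, within 0.1 read, when FPKM was multiplied by gene span. With transcript length, 19.7% were, and 20% would be by chance. Across the 78 genes, log2 mean FPKM was lower where log2 gene span was larger (Pearson r = -0.91), and spans ran from 825 bases for Mrpl53 to 121712 bases for Mrps28 (median 7690.5). Over 15427 genes above 0 in every library the same r was -0.33. These correlations describe the genes, and the points share libraries and the division by span.

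Scaled to library size alone, without division by length (RPM), the 78 genes lay much closer together. The lowest was Mrpl52 with 7.87 ± 0.919 RPM in heterozygous and 7.59 ± 1.71 RPM in wild-type libraries (SD, n = 3 each). The highest was Mrpl49 with 53.1 ± 4.28 RPM in heterozygous and 46.4 ± 7.20 RPM in wild-type libraries. Mrps28, last of all in FPKM, had 8.84 ± 0.735 RPM in heterozygous and 8.42 ± 0.565 RPM in wild-type libraries. RefSeq gene spans were used for RPM; for some of these genes GENCODE gives another span, and their RPM level is uncertain by as much. Approximate reads per gene and library ran from 156 to 1570. Whether reads within introns were counted was not tested, so a level here is that of the whole gene and not of its mature message.

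**Figure D1:**
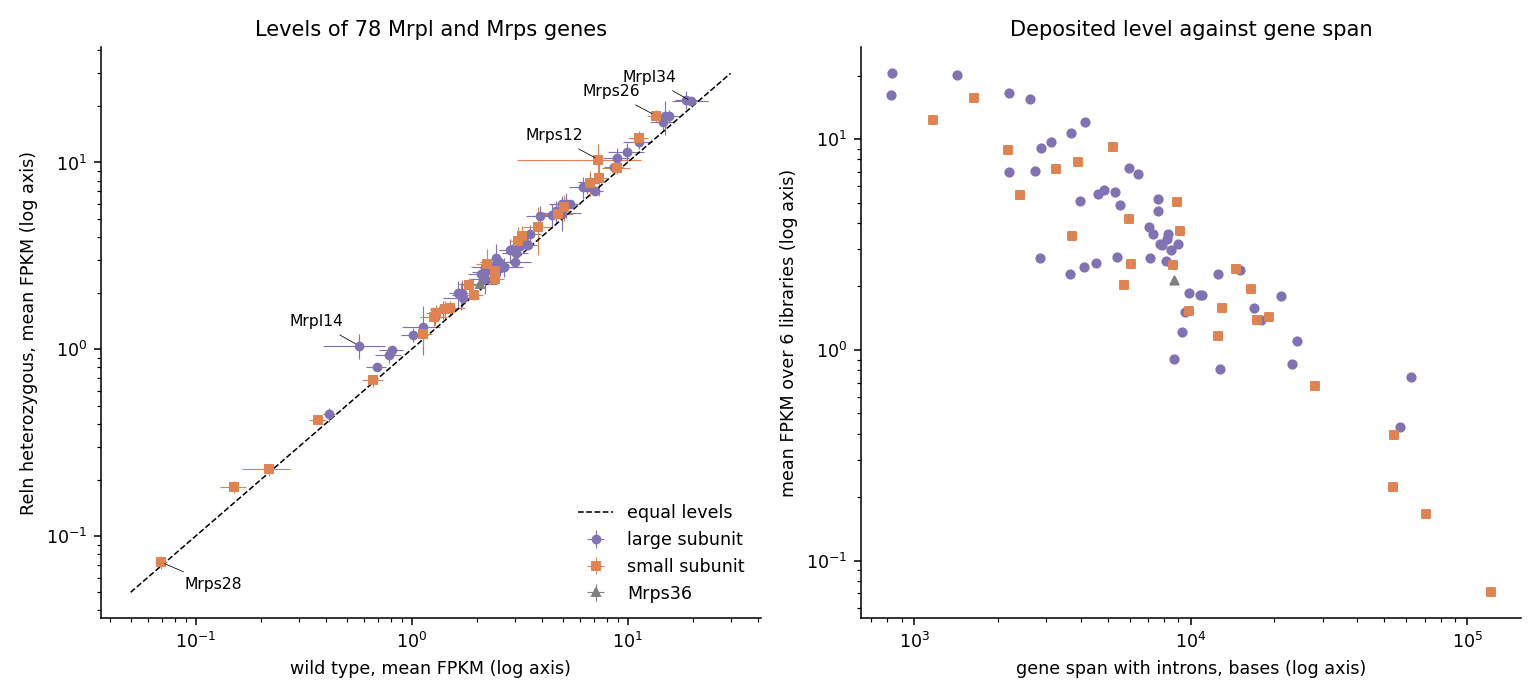
Left, mean FPKM of the 78 genes in Reln heterozygous (vertical axis) against wild-type libraries (horizontal axis), both log axes; points are genes, bars the SD of 3 libraries and the dashed line equal levels. Most points lie on or just above the line, with Mrpl14 furthest above it. Right, mean FPKM over the 6 libraries (vertical) against gene span with introns in bases (horizontal), both log axes, with the same symbols; levels fall with span, down to 0.0709 FPKM for Mrps28.

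The comparison of heterozygous with wild-type cerebellum asks which genes differ between them. No mitochondrial ribosomal protein gene passed the test. Of the 78, 68 had a mean of at least 1 FPKM and were tested among 6358 genes, with limma on log2(FPKM + 1) and Benjamini-Hochberg adjustment over all genes tested. The call threshold was an adjusted p under 0.05. None of the 68 was called, against 5 of 6358 genes (0.0786%), and their adjusted p ran from 0.68 to 0.99. At an unadjusted p under 0.05 there were 3 of 68, Mrps12, Mrps26 and Mrpl10, against 3.33% of all genes tested. The limma SE of the 68 differences was 0.088 to 0.18 on the log2 scale. These SEs and p-values rest mostly on a spread pooled over genes of like level (54.4 prior against 4 residual degrees of freedom). They are therefore not each gene's own spread between libraries. Mrps12 and Mrpl23 had SDs within groups of 0.53 and 0.050 on the log2 scale, but SEs of 0.18 and 0.12.

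The differences were small and nearly all of one sign. The mean log2(FPKM + 1) was higher in heterozygous libraries for 66 of 68 genes (97.1%), beside 83.1% of all genes tested. The median difference was 0.16 for the 68 genes and 0.083 for all genes tested. The ratio of mean FPKM, heterozygous over wild type, ran from 0.971 to 1.41 with a median of 1.15. Every heterozygous library was above every wild-type library for 10 of 68 genes (14.7%), beside 4.81% of all genes tested. The reverse was found for none of the 68, beside 0.739% of all.

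The median of all genes tested lay on the same side. Scaling the libraries by the median of ratios moved the median of all genes tested to 0.013 and that of the 68 genes to 0.077. After it, 59 of 68 (86.8%) were higher in heterozygous libraries, beside 57.1% of all genes, and 16 of 68 (23.5%) did not overlap, all higher, beside 7.38% of all. On RPM, a scale added after the data were seen, all 78 genes passed a filter of a mean of 1 among 12954 genes. The median difference was then 0.19 for the 78 and 0.088 for all, and 13 of 78 (16.7%) had every heterozygous library above, beside 4.42% of all. On that scale limma called no gene in the whole table (0%), and 5 of the 78 and 224 of 12954 had an unadjusted p under 0.05.

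**Figure D2:**
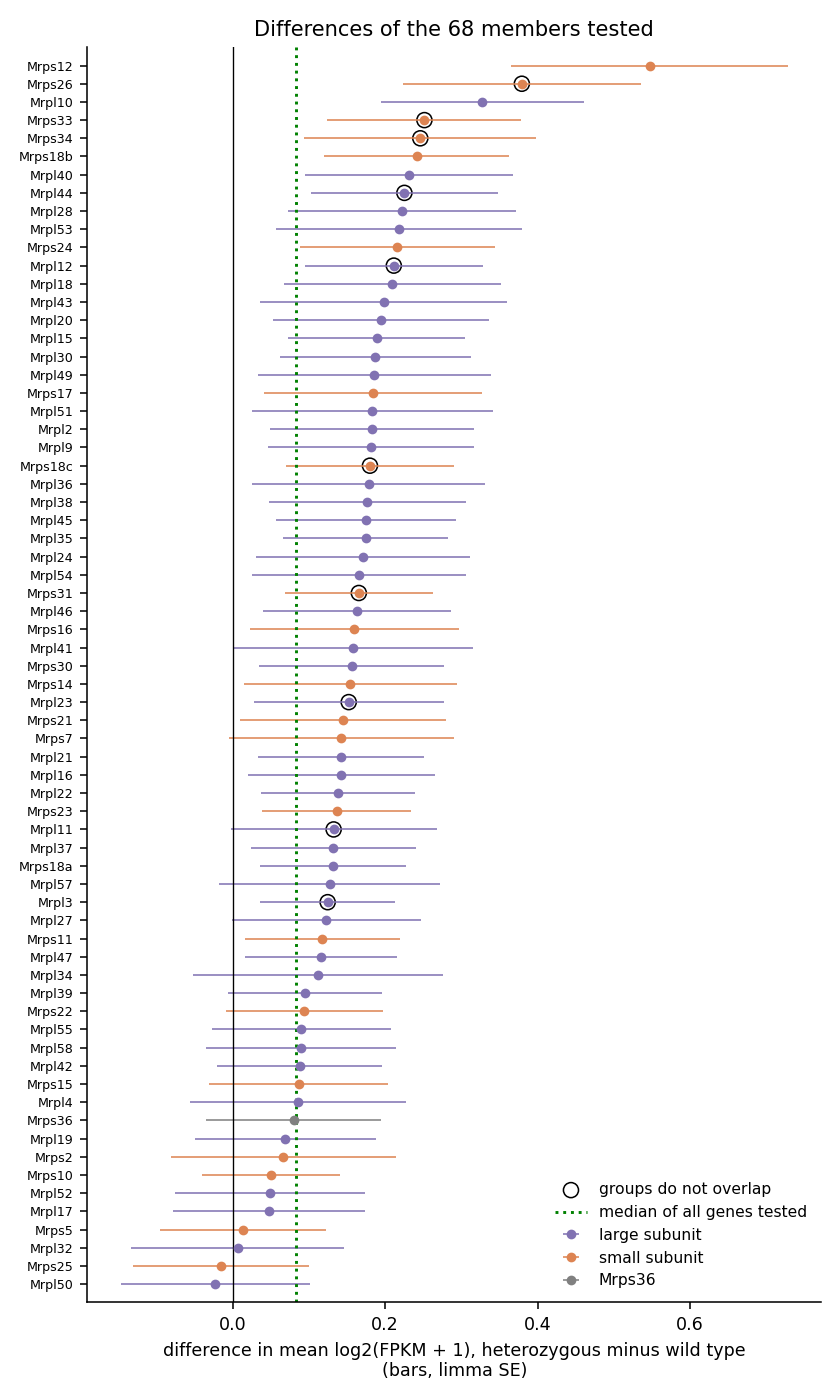
Mean log2(FPKM + 1) of the heterozygous libraries minus that of the wild-type libraries for each of the 68 genes tested, ordered by size down the page; bars are the limma SE, ringed points are genes whose groups do not overlap, and the dotted line is the median of all genes tested, 0.083. Apart from Mrpl50 and Mrps25 every point lies above 0, from 0.0063 for Mrpl32 to 0.55 for Mrps12.

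The large subunit had 45 of 46 genes higher in heterozygous libraries with a median difference of 0.16, and the small subunit 20 of 21 with a median of 0.15. Every heterozygous library was above every wild-type library for 5 of 46 large-subunit genes (10.9%) and 5 of 21 small-subunit genes (23.8%), beside 4.81% of all genes tested. The order of these shares depended on the scaling. After median-of-ratios scaling they were 12 of 46 (26.1%) and 4 of 21 (19.0%), beside 7.38% of all genes. The homologues of bacterial proteins had 39 of 39 higher with a median of 0.14, and the mitochondria-specific proteins 26 of 28 with a median of 0.16. The differences between these classes were not tested.

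The libraries differed within each group. The median deviation of the 68 genes from their own mean over the 6 libraries was 0.058, 0.18 and -0.023 on the log2 scale in heterozygous libraries, and 0.049, -0.19 and -0.095 in wild-type libraries. For all genes tested it was 0.0062, 0.13 and -0.016 in heterozygous libraries, and 0.080, -0.18 and -0.030 in wild-type libraries. Heterozygous replicate 2 was thus high, and wild-type replicate 2 low, for these genes and for the whole table alike.

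Wild-type replicate 2 was the lowest library for 56 of 68 genes, beside 78.4% of all genes tested, and heterozygous replicate 2 the highest for 48, beside 56.3%. Both held for 38 of 68 (55.9%), beside 47.2% of all. Set against the median of all genes in the same library, the 68 genes stood at 0.052, 0.044 and -0.0070 in heterozygous libraries and at -0.030, -0.013 and -0.065 in wild-type libraries. On that relative measure the groups did not overlap, but the nearest libraries, heterozygous replicate 3 and wild-type replicate 2, were close. After median-of-ratios scaling, wild-type replicate 3 was the lowest for 36 of 68 genes, beside 26.9% of all genes. Small and structural RNAs held 14.6, 7.36 and 21.7% of the summed FPKM in heterozygous libraries and 10.2, 21.6 and 10.6% in wild-type libraries. Their part in the shift was not tested.

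**Figure D3:**
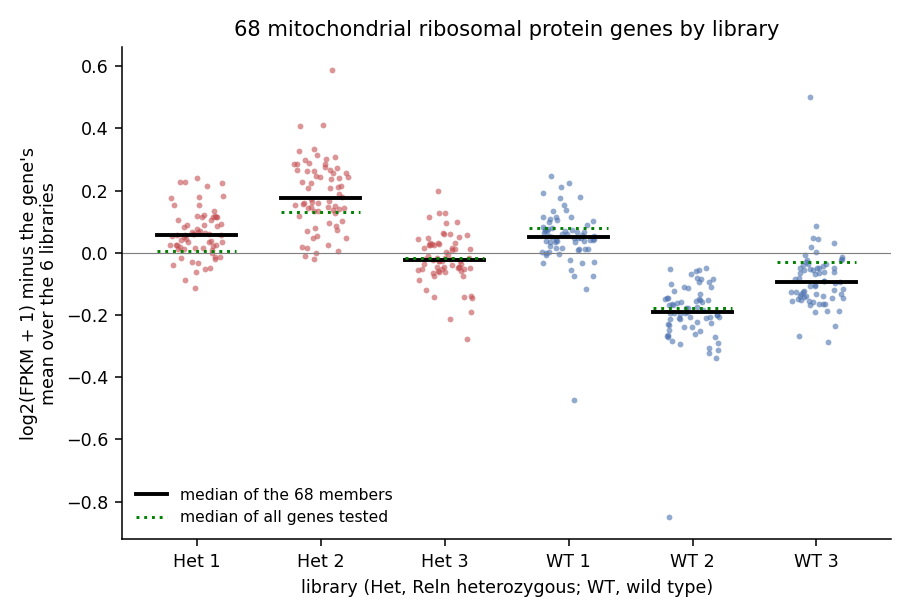
log2(FPKM + 1) of each of the 68 genes minus its own mean over the 6 libraries (vertical axis) in each library (horizontal axis; Het, Reln heterozygous; WT, wild type); points are genes, black lines the medians of the 68 and dotted lines the medians of all genes tested. The medians of the 68 follow those of all genes, highest in Het 2 at 0.18 and lowest in WT 2 at -0.19. The points far from the rest in the wild-type libraries are Mrps12.

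Among the small-subunit genes, Mrps12 had the largest difference and the largest spread. It codes for a homologue of the bacterial protein of the decoding centre, where codon and anticodon meet. It had 9.07, 13.0 and 9.06 FPKM in heterozygous libraries, against 5.69, 4.15 and 12.2 FPKM in wild-type libraries. Wild-type replicate 3 lay among the heterozygous values, so the groups overlapped. The means were 10.4 ± 2.25 FPKM in heterozygous and 7.33 ± 4.24 FPKM in wild-type libraries (SD, n = 3 each). On the log2 scale they differed by 0.55 (SE 0.18), and the adjusted p of limma was 0.68. Without wild-type replicate 3 the difference was 0.93 and limma called it (adjusted p = 0.0010). Leaving out the library that lay among the heterozygous values was bound to widen the difference, so that call is no support for it. Sars2, the mitochondrial seryl-tRNA synthetase, starts 172 bases away on the other strand. Sars2 had 0.828, 0.843 and 0.690 FPKM in heterozygous libraries, against 0.730, 0.644 and 0.660 FPKM in wild-type libraries, and so did not share the high value of wild-type replicate 3.

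Mrps26, a mitochondria-specific protein of the small subunit, had 16.5, 19.1 and 17.9 FPKM in heterozygous libraries, against 14.2, 12.2 and 14.0 FPKM in wild-type libraries. Every heterozygous library was above every wild-type library. The log2 difference was 0.38 (SE 0.16, limma adjusted p = 0.90). In GENCODE, 4930473A02Rik overlaps Mrps26 on the other strand, and reads from it cannot be told apart here. Mrps33, also specific to mitochondria, had 3.82, 4.62 and 3.72 FPKM in heterozygous libraries, against 3.53, 3.00 and 3.19 FPKM in wild-type libraries, again without overlap, for a difference of 0.25 (SE 0.13). Mrps34 had 13.4, 14.9 and 12.3 FPKM in heterozygous libraries, against 11.99, 11.8 and 9.91 FPKM in wild-type libraries. The Mrps34 groups did not overlap, and the difference was 0.25 (SE 0.15). Nme3 and Mapk8ip3 overlap this gene, and reads from them cannot be told apart here. Mrps31, another mitochondria-specific protein, had 1.53, 1.73 and 1.45 FPKM in heterozygous libraries, against 1.42, 1.17 and 1.28 FPKM in wild-type libraries, which just did not overlap (difference 0.17, SE 0.097).

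The 3 Mrps18 paralogs, which descend from a single bacterial protein and sit at different places in the mitoribosome, gave like differences. In the classes above, only Mrps18c was counted as a bacterial homologue, and Mrps18a and Mrps18b as mitochondria-specific. Mrps18a, in spite of its name a large-subunit protein, had 1.40, 1.66 and 1.43 FPKM in heterozygous libraries, against 1.41, 1.15 and 1.28 FPKM in wild-type libraries. Mrps18b had 3.11, 3.26 and 2.18 FPKM in heterozygous libraries, against 2.52, 2.07 and 2.13 FPKM in wild-type libraries. Mrps18c had 2.07, 2.44 and 2.15 FPKM in heterozygous libraries, against 2.00, 1.73 and 1.79 FPKM in wild-type libraries. Only Mrps18c of these had no overlap, and the log2 differences were 0.13, 0.24 and 0.18 for Mrps18a, Mrps18b and Mrps18c, with SEs of 0.096, 0.12 and 0.11.

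At the other end, Mrps25 had 2.44, 2.38 and 2.35 FPKM in heterozygous libraries, against 2.69, 2.22 and 2.39 FPKM in wild-type libraries, a difference of -0.016 (SE 0.12). Mrps5, a homologue of the bacterial protein at the messenger entry, had 1.92, 2.10 and 1.88 FPKM in heterozygous libraries, against 2.16, 1.76 and 1.90 FPKM in wild-type libraries. The heterozygous values of both lay within the wild-type range, and Mrps5 differed by 0.014 (SE 0.11). Mrps14, a small-subunit protein with a bacterial homologue, was among the 3 most variable genes, with 4.49, 5.77 and 3.21 FPKM in heterozygous and 4.41, 3.24 and 3.96 FPKM in wild-type libraries. Mrps10 and Mrps23 were among the 4 lowest genes tested, with means of 1.17 and 1.39 FPKM, and differed by 0.050 (SE 0.091) and 0.14 (SE 0.097).

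Among the large-subunit genes, Mrpl10 and Mrpl12 make the stalk that recruits translation factors to the ribosome. Mrpl10, the base of the stalk, had 5.49, 5.65 and 4.42 FPKM in heterozygous libraries, against 4.55, 3.66 and 3.57 FPKM in wild-type libraries. Its lowest heterozygous library was below its highest wild-type library, so the groups overlapped, and the difference was 0.33 (SE 0.13, limma adjusted p = 0.90). Mrpl12, the mobile part of the stalk, which in human cells also binds the mitochondrial RNA polymerase, had 2.59, 3.03 and 2.52 FPKM in heterozygous libraries, against 2.28, 2.05 and 2.29 FPKM in wild-type libraries. Those groups did not overlap, and the difference was 0.21 (SE 0.12). Mrpl11, at the base of the same stalk, had 6.13, 5.9243 and 5.97 FPKM in heterozygous libraries, against 5.9240, 5.32 and 4.98 FPKM in wild-type libraries. Its groups all but touched, and the difference was 0.13 (SE 0.14).

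Mrpl44, which has a fold of the ribonuclease III family, had 2.93, 3.72 and 2.59 FPKM in heterozygous libraries, against 2.56, 2.37 and 2.48 FPKM in wild-type libraries. Mrpl23, whose bacterial homologue lines the end of the exit tunnel, had 3.65, 3.85 and 3.85 FPKM in heterozygous libraries, against 3.44, 3.10 and 3.38 FPKM in wild-type libraries. Mrpl3, near the peptidyl transferase centre, had 1.1357, 1.314 and 1.1352 FPKM in heterozygous libraries, against 1.1346, 0.884 and 1.03 FPKM in wild-type libraries. None of these 3 genes had an overlap, though the Mrpl3 groups all but touched, and their differences were 0.23 (SE 0.12), 0.15 (SE 0.12) and 0.12 (SE 0.088).

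Mrpl50 had the lowest difference, -0.023 (SE 0.12), with 2.93, 3.03 and 2.84 FPKM in heterozygous libraries, against 3.53, 2.44 and 3.10 FPKM in wild-type libraries. Mrpl32, a zinc-binding protein that matures in mitochondria by cleavage, had 7.27, 7.08 and 6.85 FPKM in heterozygous libraries, against 7.68, 6.39 and 7.06 FPKM in wild-type libraries. The heterozygous values lay within the wild-type range for both, and Mrpl32 differed by 0.0063 (SE 0.14). Mrpl17 and Mrpl52 differed by 0.047 (SE 0.13) and 0.049 (SE 0.12), and Mrpl47 by 0.12 (SE 0.099), all with overlap. Mrpl4, whose bacterial homologue reaches into the exit tunnel, varied within the groups, with 5.26, 6.45 and 4.35 FPKM in heterozygous and 6.25, 4.28 and 4.46 FPKM in wild-type libraries. Mrpl58, the peptidyl-tRNA hydrolase of the large subunit, had 3.29 ± 0.248 FPKM in heterozygous and 3.04 ± 0.411 FPKM in wild-type libraries (SD, n = 3 each). The large-subunit genes of highest FPKM, Mrpl43, Mrpl51, Mrpl53 and Mrpl41, differed by 0.20, 0.18, 0.22 and 0.16, with SEs of 0.16 each, and Mrpl34 by 0.11 (SE 0.16).

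The 10 genes under the filter were Mrpl1, Mrpl13, Mrpl14, Mrpl33, Mrpl48, Mrps6, Mrps9, Mrps27, Mrps28 and Mrps35. In 3 of them, Mrpl14, Mrpl33 and Mrpl48, every heterozygous library was above every wild-type library. With no filter on low values, the same held for 4.41% of 19511 genes. Mrpl14, singled out after its values were seen, codes for a protein of the interface between the subunits, which in human cells is bound by the silencing factor MALSU1 during assembly. It had 0.955, 0.950 and 1.24 FPKM in heterozygous libraries, against 0.502, 0.774 and 0.430 FPKM in wild-type libraries. That is 13.4 ± 2.09 RPM in heterozygous and 7.26 ± 2.32 RPM in wild-type libraries (SD, n = 3 each). On RPM it had the highest difference of the 78 genes, 0.82 (SE 0.19), and limma did not call it (adjusted p = 0.99). Tmem63b, which overlaps Mrpl14 on the other strand, had 2.71, 3.20 and 2.64 FPKM in heterozygous and 3.13, 2.33 and 2.91 FPKM in wild-type libraries. The Tmem63b values overlapped between the groups. Reads from Tmem63b cannot be told apart from those of Mrpl14 here.

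**Figure D4:**
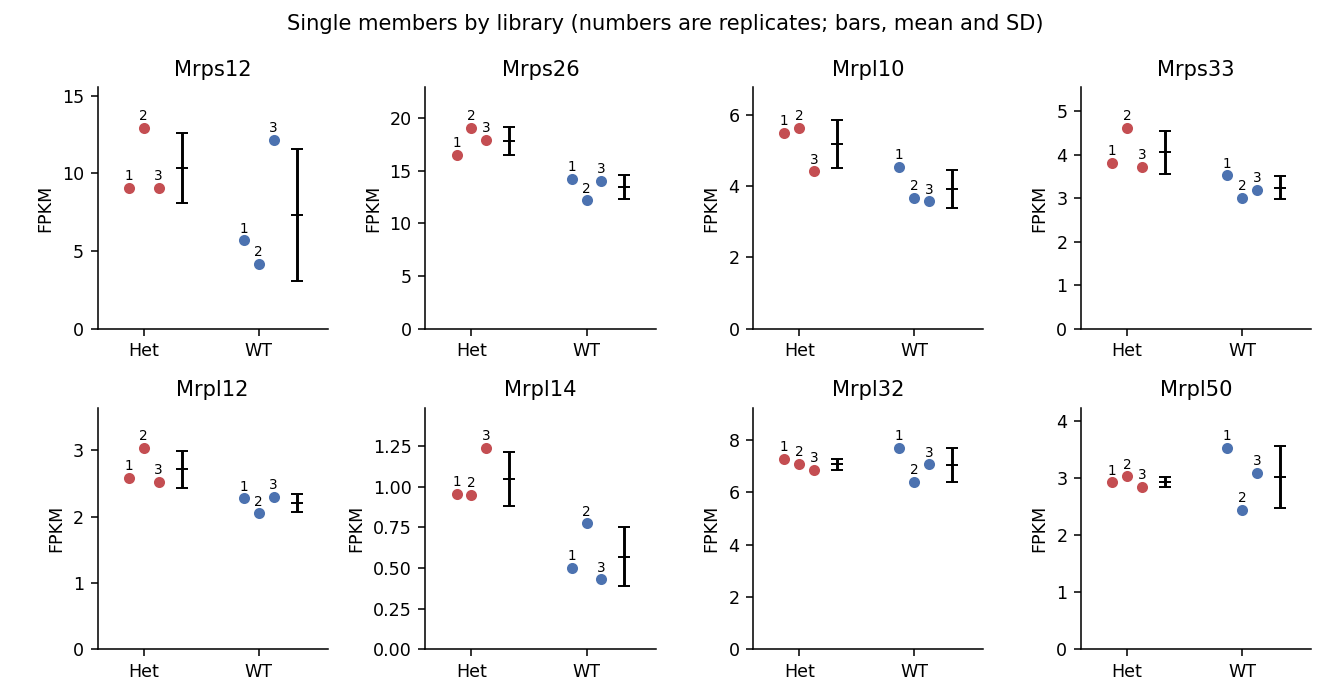
FPKM (vertical axes, each from 0) of 8 genes in the 3 Reln heterozygous (Het) and 3 wild-type (WT) libraries; points are libraries with their replicate number, and bars beside them the mean and SD. Mrps26, Mrps33, Mrpl12 and Mrpl14 have no overlap between groups, wild-type replicate 3 of Mrps12 lies at 12.2 FPKM among the heterozygous values, and Mrpl32 and Mrpl50 have heterozygous values within the wild-type range.

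The promoters of 4 genes are shown, Mrps12, Mrps26 and Mrpl10 for the largest differences of the 68 genes and Mrpl32 for the most motif matches with a difference near 0. Each is the 250 bases before the RefSeq gene start (GRCm38.p6), 5′ to 3′ on the gene's strand, at chr7:28741822-28742071 (minus), chr2:130563507-130563756 (plus), chr11:97041332-97041581 (plus) and chr13:14613038-14613287 (minus). Capitals mark matches, on either strand, to letters of motifs found before genes of mitochondrial function: GCATGCGC for NRF1, CCGGAAG for ETS factors such as GABP, and AAGATGGC for YY1.
Mrps12: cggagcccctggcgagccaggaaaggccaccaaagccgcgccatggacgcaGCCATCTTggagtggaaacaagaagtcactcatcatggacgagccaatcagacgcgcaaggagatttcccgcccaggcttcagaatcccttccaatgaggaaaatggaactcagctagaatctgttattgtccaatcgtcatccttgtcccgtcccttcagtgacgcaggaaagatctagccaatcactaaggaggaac
Mrps26: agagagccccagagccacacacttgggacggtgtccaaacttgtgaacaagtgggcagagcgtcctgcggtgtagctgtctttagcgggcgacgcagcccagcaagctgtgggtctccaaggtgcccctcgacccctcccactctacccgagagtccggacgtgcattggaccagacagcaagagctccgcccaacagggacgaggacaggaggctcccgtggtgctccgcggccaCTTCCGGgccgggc
Mrpl10: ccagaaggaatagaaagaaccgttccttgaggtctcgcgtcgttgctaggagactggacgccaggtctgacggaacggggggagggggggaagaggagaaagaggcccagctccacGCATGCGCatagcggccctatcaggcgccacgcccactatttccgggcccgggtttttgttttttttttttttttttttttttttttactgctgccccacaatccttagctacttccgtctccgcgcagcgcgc
Mrpl32: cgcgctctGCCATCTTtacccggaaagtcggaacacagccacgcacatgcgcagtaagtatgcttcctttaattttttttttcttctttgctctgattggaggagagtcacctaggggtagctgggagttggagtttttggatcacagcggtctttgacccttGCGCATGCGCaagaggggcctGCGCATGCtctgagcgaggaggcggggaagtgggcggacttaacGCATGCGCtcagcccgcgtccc

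Mrps12 had a YY1 match, Mrps26 an ETS match 14 bases before the start, and Mrpl10 an NRF1 match. Mrpl32, with the smallest difference of the 4, held 4 NRF1 matches, of which a pair overlap each other, and a YY1 match. Mrpl50 and Mrps25, the genes with lower means in heterozygous libraries, had no match in their 250 bases. Of the 78 genes, 69 had a RefSeq promoter sequence, and a gene with several starts was counted once. In the 250 bases before the start, the ETS letters were found for 26.1% of the 69, beside 17.8% of genes tested and 10.1% of all 17636 genes with a promoter sequence. The NRF1 letters were found there for 11.6%, beside 6.00% of genes tested and 3.38% of all. The YY1 letters were found for 5.80% (4 genes), beside 2.84% of genes tested and 1.84% of all. At least 1 of these motifs was found for 39.1%, beside 24.6% of genes tested and 14.3% of all. The letters CCAAT were found for 36.2%, beside 41.6% of genes tested and 39.1% of all, and TATAAA for 7.25%, beside 6.97% and 13.2%. With the 50 bases after the start added, the ETS share was 37.7%, beside 23.3% of genes tested, and the YY1 share 17.4%, beside 6.47%. The median difference was 0.15 for the 24 genes tested with an NRF1, ETS or YY1 match in the 250 bases and 0.15 for the 38 without. A match is a description of these letters and not a binding site.

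The genes lay on 17 chromosomes, with 11 on chromosome 11, 8 on chromosome 17 and 7 on chromosome 6. For 33 of 78 (42.3%), a protein-coding gene started within 1000 bases on the other strand, beside 18.1% of 6083 protein-coding genes tested. In GENCODE, 36 of the 78 overlapped a gene on the other strand and 9 one on the same strand. The library kit keeps the strand, but the strand setting of the authors' quantification is not given in the sources used here, so reads from such partners may be included in these values.

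The 68 genes varied together over the 6 libraries. The median Pearson r of each gene with the mean of the others was 0.88, from 0.50 for Mrps25 to 0.995 for Mrpl28, and other genes tested had a median r of 0.82 with the mean of the 68. Among the genes outside the group most like its mean were Rdh14, Strap, Naca and Psmc4, with r from 0.997 to 0.998. In each of these, heterozygous replicate 2 was the highest and wild-type replicate 2 the lowest library. Differences were lower in longer genes (r of log2 span with the difference, -0.38 over the 68 genes and -0.19 over 6135 genes tested). The 68 genes were shorter, with a median span of 6747.5 bases against 14252. Differences were higher at higher FPKM (r of log2 level with the difference, 0.37 and 0.28). On RPM, r for span was -0.12 over the 78 genes and -0.15 over 12954 genes tested, and r for level was -0.12 and 0.086. The part of length and level in the gap between the medians was not tested. These correlations rest on libraries and depth that all genes share, and describe them only.

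Genes that work beside the mitoribosome were also examined, as counts and medians without a test of the lists. No gene of the 9 lists was called by limma in either direction. The 5 mitoribosomal proteins with other names that were in the files, Dap3, Ptcd3, Chchd1, Aurkaip1 and Gadd45gip1, were all higher in heterozygous libraries, with a median difference of 0.17, and all overlapped between groups. Aurkaip1, of the small subunit, had 23.3 ± 1.26 FPKM in heterozygous and 20.0 ± 2.07 FPKM in wild-type libraries (SD, n = 3 each). Dap3, a GTP-binding small-subunit protein, had 1.23 ± 0.121 FPKM in heterozygous and 1.09 ± 0.0368 FPKM in wild-type libraries.

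The mitochondrial translation factors had 8 of 9 genes tested higher in heterozygous libraries and a median difference of 0.12. They ran from Guf1, an elongation factor, at -0.015 (SE 0.10) to Tufm, the factor that brings tRNAs to the ribosome, at 0.22 (SE 0.16). The mitochondrial aminoacyl-tRNA synthetases, which charge those tRNAs, had 6 of 9 higher and a median of 0.072, from Aars2 at -0.044 (SE 0.11) to Yars2 at 0.16 (SE 0.096). Genes for mitoribosome assembly and rRNA modification had 15 of 15 higher and a median of 0.0996. Their lowest was Ddx28, an RNA helicase, at 0.027 (SE 0.14), and their highest Mrm2, a methyltransferase of the large rRNA, at 0.26 (SE 0.095). Mrm2 had 1.51, 1.75 and 1.51 FPKM in heterozygous libraries, against 1.28, 1.12 and 1.11 FPKM in wild-type libraries, without overlap.

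Genes for transcription of mitochondrial DNA and processing of its RNA had 8 of 10 higher and a median of 0.044, below that of all genes tested. They ran from Ssbp1, the single-strand DNA-binding protein, at -0.030 (SE 0.088) to Hsd17b10, a subunit of mitochondrial ribonuclease P, at 0.17 (SE 0.14). Of the nuclear regulators of mitochondrial genes, 3 of 10 passed the filter, with a median of 0.016, from Gabpa at -0.0092 (SE 0.094) to Esrra at 0.13 (SE 0.13). After median-of-ratios scaling the medians of both lists turned to -0.017 and -0.039.

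The larger lists lay near the mitochondrial ribosomal protein genes. The 18 genes for mitochondrial membrane, import and matrix proteins, taken as a measure of mitochondrial mass, were all higher. Their median was 0.16, from Timm44 at 0.066 (SE 0.12) to Clpp at 0.26 (SE 0.13). The oxidative phosphorylation subunits, which include the partners of the mitoribosome's products, had 77 of 78 higher and a median of 0.19. They ran from Cox6c at -0.012 (SE 0.17) to Cyc1, cytochrome c1, at 0.34 (SE 0.18). The cytosolic ribosomal proteins had 77 of 79 higher and a median of 0.20, from Rps16 at -0.22 (SE 0.13) to Rps14 at 0.40 (SE 0.16). Many cytosolic ribosomal protein genes have near-identical pseudogenes, so their values are uncertain. Every heterozygous library was above every wild-type library for 18 of 79 cytosolic ribosomal proteins (22.8%) and 7 of 78 oxidative phosphorylation subunits (8.97%), beside 4.81% of all genes tested. For the mitochondrial mass genes it was 0 of 18. After median-of-ratios scaling the counts were 18 of 79 (22.8%), 15 of 78 (19.2%) and 4 of 18 (22.2%). That is near the 23.5% of the mitochondrial ribosomal protein genes on that scale, beside 7.38% of all.

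**Figure D5:**
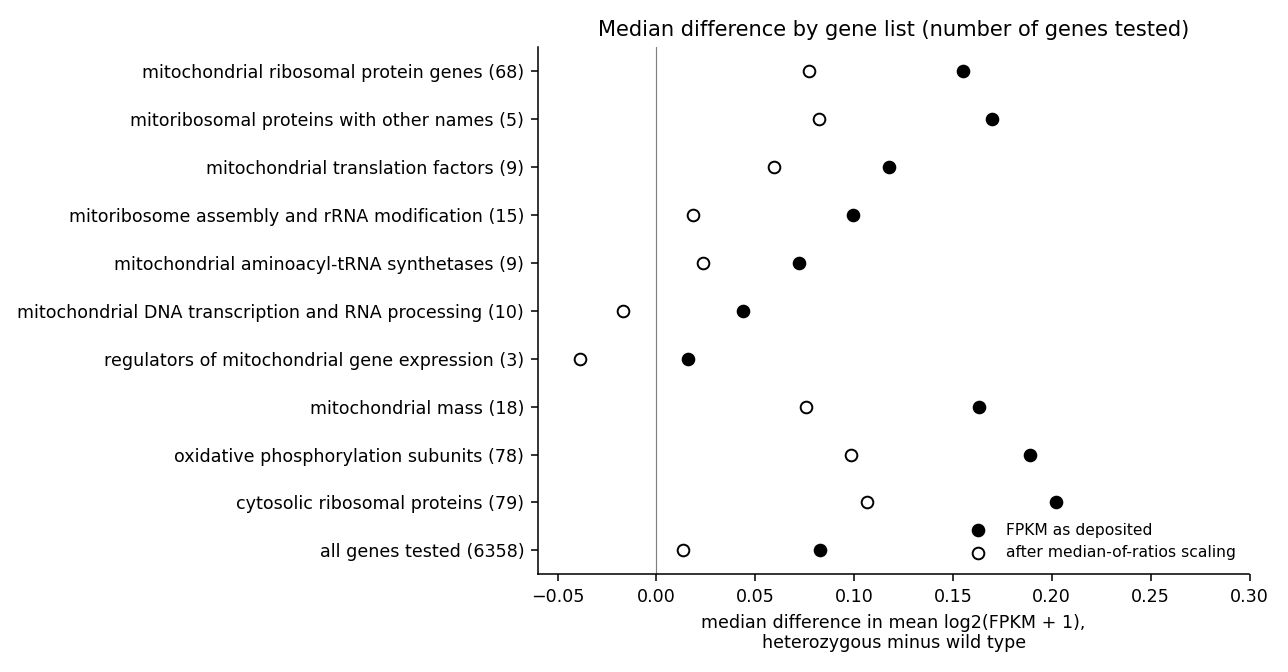
Median over each gene list of the heterozygous minus wild-type difference in log2(FPKM + 1) (horizontal axis), by list (vertical axis, number of genes tested in parentheses), with FPKM as deposited (filled) and after median-of-ratios scaling (open). The mitochondrial ribosomal protein genes lie at 0.16 as deposited and 0.077 after scaling, beside 0.083 and 0.013 for all genes tested.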

How the data were processed

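RNA was sequenced as single-end reads from a stranded total RNA kit, per the labels' protocols. The authors filtered out mitochondrial and ribosomal sequences, trimmed 2 bases, aligned to mm10 with TopHat2 and Bowtie, and quantified with Cufflinks, giving FPKM per gene, per the labels' protocols. Cuffdiff 2.1.1 is named in the submitters' processing notes for the authors' own test, which was not used. The length behind FPKM was read from the values, as described above; RefSeq spans (GRCm38.p6) were found for 23717 genes, and with them 83.1% of low values were whole within 0.1 read. That is too few for a count test, so the planned one was not run.

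Group and replicate number came from the sample titles. Genes whose mean reached 1 FPKM were tested on log2(FPKM + 1) with limma 3.58.1 (R 4.3.3, trend) and Benjamini-Hochberg adjustment, heterozygous minus wild type. A log2 difference on that scale understates the change of low genes. The test was run on simulated data whose planted changes were larger than the differences of these genes. That run does not show how the test does on differences of their size. In heterozygous replicate 2, 40 genes read as spreadsheet dates and were left out; none was a mitochondrial ribosomal protein gene. Gene positions came from GENCODE M21 (GRCm38).

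The genes and lists were chosen with earlier results of these data known. Named genes were the largest and lowest differences, the highest and lowest levels, the largest spread, those without overlap and the Mrps18 paralogs, with the extremes of each other list; Mrpl14, Sars2 and Tmem63b were added after their values were seen. Alternatives were other pseudocounts, filters and scalings, limma without trend, a replicate block, left-out libraries and reads per library size without length (RPM, FPKM times RefSeq span, added after the data were seen). A gene that the rule on likeness would name is not reported here.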

Additional observations from a re-analysis of the deposited data

How the results depend on the processing

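The median difference of the mitochondrial ribosomal protein genes stayed positive under every alternative run, from 0.044 without both replicates 2 to 0.21 without wild-type replicate 1. It stayed above the median of all genes tested in all of them; the gap, 0.072 as reported, was 0.13 without a filter, 0.11 on RPM, 0.10 on RPM with median-of-ratios scaling, and 0.015 without the 3 libraries rich in choroid plexus markers (wild-type replicates 1 and 3, heterozygous replicate 2). Leaving out single libraries gave gaps of 0.044 to 0.093, and 59 to 68 genes higher in heterozygous libraries. With a 5 FPKM filter, 26 genes were tested, all of them higher in heterozygous libraries.

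Among alternatives with at least 2 libraries in each group, 1 called any of these genes: Mrps12 without wild-type replicate 3 (0 to 1 calls over single libraries left out). Without the choroid plexus-rich libraries, which include wild-type replicate 3, the difference of Mrps12 was 0.97. Only 1 wild-type library was then left, replicate 2, the lowest for Mrps12 at 4.15 FPKM. That choice favoured a wider difference, so the value is no support for it. Genes without overlap numbered 10 as reported (beside 4.81% of all genes above), and 3 with a 5 FPKM filter (beside 5.25%). They numbered 16 after median-of-ratios scaling (beside 7.38%) and 18 on scaled RPM (beside 5.38%). After quantile normalization there were 16, of which 14 were above, beside 6.79% of all genes, and 2 below. Without the choroid plexus-rich libraries there were 66, beside 85.2% of all genes above. Leaving out single libraries gave 11 to 48, beside 5.23% to 39.3% of all genes above. The 48 and 39.3% were without wild-type replicate 1. With small RNA genes left out, 3 of 13 were below, and 5.07% of all genes were above. Without both replicates 2, 3 of 14 were below, and 5.97% of all genes were above. Without wild-type replicate 2, 1 of 11 was below, and 5.23% of all genes were above. The share of all genes below is not given for these alternatives, so their counts below cannot be set against it. Fewer libraries overlap less by construction. 

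The 5 calls over all genes are unstable: 0 with a 0.5 FPKM filter, median-of-ratios scaling, quantile normalization, small RNA genes left out, no trend, and RPM with or without scaling, and 1 without a filter. There were 13 calls with the replicate number as a block, 62 without the choroid plexus-rich libraries, 67 without both replicates 2, and 5 to 62 without single libraries. The cause was not tested. The unadjusted counts in those alternatives with 0 calls were 203 to 579 genes. Same-numbered libraries did not deviate together (r = -0.28, -0.52 and 0.14 for replicates 1, 2 and 3). With 3 libraries per group that also differ in scale, this cannot decide whether the numbers pair the samples. The block called none of the 68 genes.

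Of 30 named genes under 581 alternatives, 535 kept their direction and 46 in 11 genes reversed, none of them past the threshold. After median-of-ratios scaling Mrpl17 was at -0.028, Mrpl32 at -0.079, Mrpl52 at -0.020, Mrps10 at -0.0036 and Mrps5 at -0.050, and on scaled RPM at -0.035, -0.086, -0.024, -0.0060 and -0.074. After quantile normalization Mrpl17 was at -0.039, Mrpl32 at -0.11, Mrpl34 at -0.036, Mrpl4 at -0.012, Mrpl52 at -0.026 and Mrps5 at -0.048. With small RNA genes left out, which moved the median of all genes to -0.012, Mrpl17 was at -0.056, Mrpl32 at -0.11, Mrpl34 at -0.015, Mrpl4 at -0.026, Mrpl52 at -0.046, Mrps10 at -0.023 and Mrps5 at -0.074. Without both replicates 2, Mrpl17 was at -0.031, Mrpl32 at -0.055, Mrpl4 at -0.12, Mrpl47 at -0.096, Mrpl52 at -0.14, Mrps10 at -0.040, Mrps14 at -0.11 and Mrps5 at -0.063. Without the choroid plexus-rich libraries, Mrpl50 was at 0.18 and Mrps25 at 0.077. 

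Over single libraries left out, Mrpl50 ran from -0.13 to 0.067, Mrps25 from -0.061 to 0.038, Mrpl32 from -0.053 to 0.063, Mrpl4 from -0.036 to 0.23, Mrpl47 from -0.013 to 0.21, Mrpl52 from -0.071 to 0.17, Mrps10 from -0.0097 to 0.092, Mrps14 from -0.010 to 0.33, Mrps5 from -0.030 to 0.067 and Mrpl17 from -0.016 to 0.082. The ratio of Reln, heterozygous over wild type, ran from 0.608 to 0.673. The count test on recovered reads was not run.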
